A study of Mus musculus with 2 samples.

Results

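The 35 genes described here encode the working parts of the lysosome: 10 proteases, 6 glycosidases, 6 proteins of lipid handling and saposin supply, 6 membrane proteins and 7 subunits of the proton pump. They were taken by name from a list of known lysosomal genes, and all 35 are among the 27998 genes in the count tables. The data are single-cell RNA sequencing (scRNAseq) counts of the stromal vascular fraction of epididymal fat from C57BL/6 mice (C57BL/6J in the methods of the study). One library came from mice on a low-fat diet (LFD) and 1 from mice on a high-fat diet (HFD), each diet given for 24 wk to mice that were 6 wk old at its start. How many mice were pooled per library is not given in the sources used here. The study compared the diets to describe the stroma of obese, fibrotic fat, and stained fat sections for a beta-galactosidase activity. As each diet has 1 library and no replicate, the diets are compared by size of difference alone, without p-values.

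Lysosomes are acidic organelles in which proteases, glycosidases and lipases break down material taken up by endocytosis, phagocytosis and autophagy. A vacuolar ATPase pumps protons into them, heavily glycosylated proteins line their membrane, and Npc1 and Npc2 pass cholesterol out. Macrophages of fat carry many lysosomes and, in obesity, take up lipid from dying adipocytes. Many lysosomal genes share a promoter element, known as CLEAR, that is bound by the transcription factors Tfeb, Tfe3 and Mitf.

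Barcodes with at least 200 genes were placed in classes by raw counts of unique molecular identifiers (UMIs), each of which stands for 1 captured transcript. Fibroblasts had at least 10 UMIs of Dcn (377 LFD and 293 HFD barcodes), endothelial cells at least 3 of Cdh5 and Cldn5 together (149 and 207), and macrophages at least 10 of C1qa, C1qb and C1qc together (230 and 321). Macrophages were divided further by Cd9, a tetraspanin, and by a group of genes carried by resident macrophages (Cd209f, Cd209d, Fcna and Folr2). This is called the lectin group, although Folr2 encodes a folate receptor, so lectin+ names the rule only. Resident macrophages had at least 3 lectin group UMIs and none of Cd9 (203 and 126), and Cd9+ macrophages had at least 1 UMI of Cd9 and fewer than 3 of the lectin group (2 and 70). Cd9+ lectin+ macrophages met both conditions (2 and 47), and the remaining macrophages met neither (23 and 78). On HFD, 23 of the 70 Cd9+ and 8 of the 47 Cd9+ lectin+ macrophages had just 1 Cd9 UMI. Of these 47, 6 had just 3 lectin group UMIs. None of the 35 genes was used to place a barcode. Levels are in CPM, the UMIs of a gene per 1000000 UMIs of the class. Ranges in parentheses are 95% intervals, exact Poisson for a level, exact conditional binomial for a ratio and Clopper-Pearson for a share of barcodes, and all of them cover only the error of counting.

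The libraries held 7356278 LFD and 8412325 HFD UMIs in 1113 and 1144 barcodes, and shared 0 barcodes. Median depth lay between 5804 and 8500 UMIs per barcode in the fibroblast, endothelial and macrophage classes of both diets. Markers that the thresholds did not use followed the class names: Csf1r, Adgre1, Mrc1, Tyrobp and Fcer1g summed to 6294 and 5892 CPM in LFD and HFD macrophages, against 36.1 and 33.0 CPM in fibroblasts and 13.0 and 17.8 CPM in endothelial cells. The endothelial class also carried the mural markers Rgs5 and Kcnj8, at 1319 and 1396 CPM. Lyve1, Timd4 and Cd163 summed to 1988 and 1539 CPM in LFD and HFD resident macrophages, to 23.1 CPM in HFD Cd9+ macrophages and to 153 CPM in HFD Cd9+ lectin+ macrophages, so the latter are called by their rule only. Stress genes (Fos, Jun, Egr1, Atf3, Hspa1a and Hspa1b, all 6 listed) were lower on HFD in every class, at 7379 and 3722 CPM in macrophages, 10383 and 8909 CPM in fibroblasts and 11059 and 9492 CPM in endothelial cells. Their part in the results was not tested.

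The promoters are shown first because they are the sequence feature most lysosomal genes are known for. Promoter windows from RefSeq (GRCm38.p6, 250 bases before to 50 after the annotated start) were matched for 28 of the 35 genes, with 33 windows. The other 7 were Npc1, Ctsb, Atp6v0d2, Asah1, Atp6v1b2, Ctsh and Atp6v1h. The full CLEAR palindrome, which adds a G before and a C after the core TCACGTGA, was in 0 of 28 genes and in 0.370% of all 27025 genes with a window. The core was in 5 of 28 (17.9%), against 1.12% of all genes, and the shorter E-box CACGTG, which lies inside the core, was in 10 of 28 (35.7%), against 8.09%. Both strands read the same for these palindromes. Stretches of 150 bases before the start are printed below for the 5 genes with the core (4 bases more for Atp6v0d1, where the core runs over the start), and the first 150 bases of the window for Ctsl, which holds only the E-box. Capitals mark the core or an E-box.
Ctsd, chr7:142387828-142387977, minus strand: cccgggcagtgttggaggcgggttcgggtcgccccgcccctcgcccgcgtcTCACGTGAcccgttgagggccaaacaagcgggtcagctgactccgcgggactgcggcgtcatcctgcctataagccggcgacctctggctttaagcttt
Ctsa, chr2:164833623-164833772, plus strand: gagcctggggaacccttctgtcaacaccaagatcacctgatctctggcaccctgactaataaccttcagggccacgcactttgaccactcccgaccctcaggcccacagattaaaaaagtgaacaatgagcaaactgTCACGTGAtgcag
Mcoln1, chr8:3500369-3500518, plus strand: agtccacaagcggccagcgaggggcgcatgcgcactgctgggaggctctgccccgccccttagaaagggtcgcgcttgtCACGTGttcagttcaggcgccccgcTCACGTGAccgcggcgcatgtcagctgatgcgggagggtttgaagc
Atp6v0d1, chr8:105566061-105566214, minus strand: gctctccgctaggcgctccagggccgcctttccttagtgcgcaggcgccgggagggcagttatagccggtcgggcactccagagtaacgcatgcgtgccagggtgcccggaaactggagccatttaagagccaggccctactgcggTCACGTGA
Atp6v1a, chr16:44139260-44139409, minus strand: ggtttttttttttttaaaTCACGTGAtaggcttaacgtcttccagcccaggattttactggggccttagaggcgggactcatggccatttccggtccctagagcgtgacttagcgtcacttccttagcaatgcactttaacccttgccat
Ctsl, chr13:64370621-64370770, minus strand: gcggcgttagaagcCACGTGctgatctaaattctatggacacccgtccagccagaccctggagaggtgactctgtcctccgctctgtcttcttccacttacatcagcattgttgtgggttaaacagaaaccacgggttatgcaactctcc

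The core began 99 bases before the start in Ctsd, 46 before in Mcoln1, 132 before in Atp6v1a, 4 before in Atp6v0d1, and both 13 before and at base 5 after the start in Ctsa. The Lamp1 window held 4 E-boxes and no core. Genes with the core did not share a diet ratio in macrophages. The HFD over LFD ratio was 3.18 for Ctsd, 1.90 for Atp6v1a, 1.75 for Atp6v0d1, 1.25 for Ctsa and 0.576 for Mcoln1. A match of letters is a description of the window and not a binding site.

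Together the 35 genes took a larger share of transcripts in macrophages than in the other classes, and a larger share on HFD than on LFD in each class. In macrophages they made up 1.79% of all UMIs on LFD and 2.66% on HFD. In fibroblasts the shares were 0.675 and 0.870%, and in endothelial cells 0.366 and 0.419%. The median barcode showed the same order, at 1.74 and 2.11% in macrophages, 0.671 and 0.853% in fibroblasts and 0.359 and 0.413% in endothelial cells. Within macrophages the resident class went from 1.85 to 2.24%, while HFD Cd9+ macrophages stood at 2.99% and HFD Cd9+ lectin+ macrophages at 3.37%. The pooled share of HFD Cd9+ macrophages was above that of HFD resident macrophages, but their median barcode was not, at 2.09% (quartiles 1.45 and 3.31%) against 2.25% (1.87 and 2.58%). The barcodes of Cd9+ macrophages were therefore more spread out, as the plot of the share in each barcode shows.

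**Figure D1:**
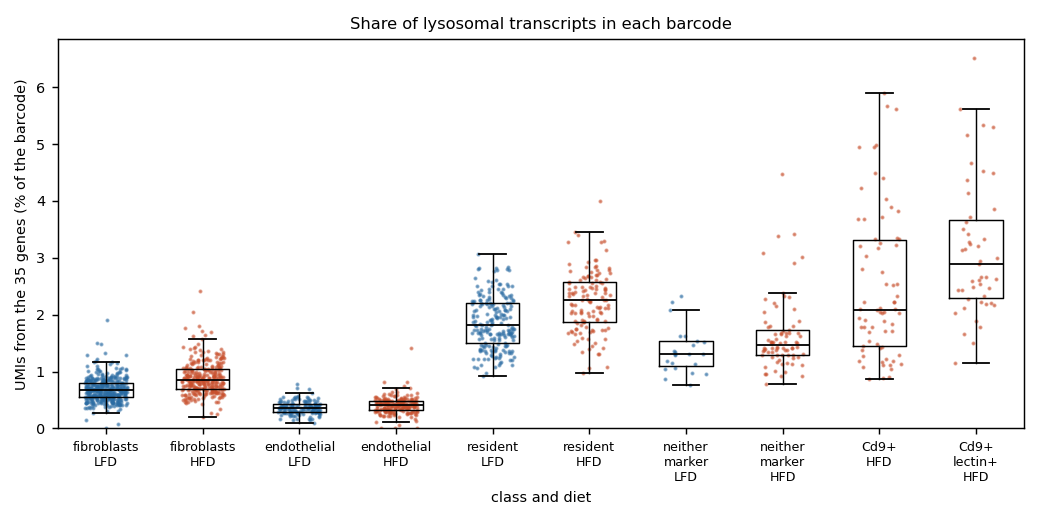
Share of each barcode's UMIs that came from the 35 lysosomal genes (vertical axis, %), by class and diet. Each point is 1 barcode, boxes give the median and quartiles, whiskers reach the last barcode within 1.5 times the quartile range, and the 2 LFD barcodes of the Cd9+ and of the Cd9+ lectin+ class are left out. Medians ran from 0.359% in LFD endothelial cells to 2.89% in HFD Cd9+ lectin+ macrophages, and the HFD Cd9+ box is the widest.

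Macrophages carried more of most lysosomal transcripts than fibroblasts did in both libraries, with the largest gaps in proteases. A gene was counted when its ratio passed 2-fold the same way in both libraries, with at least 50 UMIs. Of 32 genes with enough UMIs, 18 were higher in macrophages than in fibroblasts and 0 were lower, where 12.5% of all genes were higher and 17.2% lower. The median log2 ratio of the lysosomal genes was 1.31 on LFD and 1.73 on HFD. Ctss, a cathepsin that also trims the invariant chain for antigen presentation, was at 783 and 1520 CPM in macrophages and at 4.75 and 4.48 CPM in fibroblasts (ratios 165 and 340). The macrophage markers of the check were in fibroblasts at 0.573 and 0.559% of their macrophage level, and Ctss at that share would read 4.49 and 8.50 CPM, so its fibroblast counts are no higher than stray macrophage RNA would give on HFD and about the same on LFD. Ctsc, which activates serine proteases of immune cells, had ratios of 59.3 on LFD and 16.5 on HFD. For Cd68, the macrophage membrane glycoprotein macrosialin, they were 32.0 and 84.8, and for Lgmn, the asparagine-cleaving protease legumain, 38.8 and 12.8. Next came Man2b1, the acid mannosidase, on LFD (8.63 and 5.47) and the aspartic protease gene Ctsd on HFD (3.62 and 11.8).

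Other lysosomal genes were as high or higher in fibroblasts. Ctsl, a broad endopeptidase, was at 1287 and 1710 CPM in fibroblasts and at 424 and 1962 CPM in macrophages, so that the ratio was 0.329 on LFD and 1.15 on HFD. Cd63, a tetraspanin of late endosomes, was at 975 and 1603 CPM in fibroblasts and 648 and 1330 CPM in macrophages (ratios 0.665 and 0.830). Gaa, the acid glucosidase that degrades glycogen, had ratios of 0.594 and 0.333, and Scarb2, the receptor that carries glucocerebrosidase to lysosomes, 0.897 and 0.461. Lamp2, which lines the lysosomal membrane, was nearly level at 1.17 and 0.905. Ctsh, an aminopeptidase, was 2.97-fold higher in macrophages on LFD and 1.17-fold on HFD, so it did not count as higher.

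Against endothelial cells the excess in macrophages was wider, with 25 of 32 genes higher and 0 lower, where 12% of all genes were higher and 17.6% lower. Their log2 ratios had a median of 1.76 on LFD and 2.22 on HFD. Ctss (ratios 341 and 277), Ctsc (236 and 195), Cd68 (25.04 and 58.7), Ctsh (35.5 and 12.6), Lgmn (33.7 and 19.8) and Ctsb (12.2 and 14.2) had the highest ratios in either library. Ctsb and Ctsd, the abundant cysteine and aspartic proteases, were at 210 and 172 CPM in LFD endothelial cells and at 263 and 187 CPM on HFD. Neu1, the sialidase, had ratios of 1.67 and 0.797, Ctsl 0.826 and 2.88, Scarb2 1.21 and 1.02, and Gaa 1.88 and 1.31. The pump subunit gene Atp6v0d1 (1.41 and 2.54) and the pump accessory gene Atp6ap1 (2.22 and 1.74), with Atp6v1a (1.86 and 4.48), also did not pass 2-fold in both libraries, while Lamp2 did (3.23 and 2.08).

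**Figure D2:**
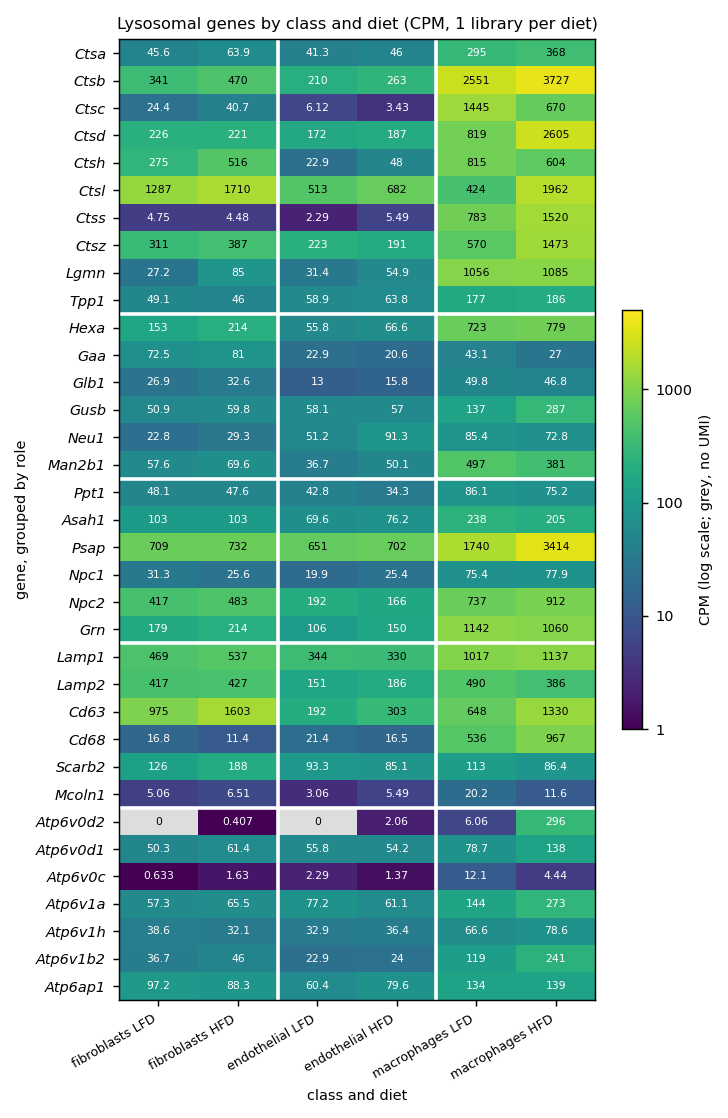
Level of the 35 lysosomal genes (rows, grouped from top to bottom as proteases, glycosidases, lipid handling and saposins, membrane proteins and proton pump) in fibroblasts, endothelial cells and macrophages of each diet (columns). Colour and printed number are CPM, the colour on a log scale, and grey marks no UMI. Ctss, Ctsc, Cd68 and Lgmn stand out in macrophages, while Ctsl and Cd63 are as bright in fibroblasts.

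Between the diets, macrophages showed the widest changes of the 3 classes. Of 34 lysosomal genes with at least 50 UMIs, 12 were past 1.5-fold higher on HFD and 3 past 1.5-fold lower, where 14.7% of all genes were higher and 16.9% lower. The median log2 ratio of the lysosomal genes was 0.13, against -0.02 for all genes. The 12 comprised 4 proteases, 1 glycosidase, 1 lipid handling gene, 2 membrane proteins and 4 of the 6 pump subunits tested.

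Among the proteases, Ctsl was at 424 CPM (391 to 458) on LFD and 1962 CPM on HFD, a ratio of 4.63 (4.26 to 5.03). Ctsd was at 819 and 2605 CPM (3.18, 2.99 to 3.38), and Ctsz, an exopeptidase, at 570 and 1473 CPM (2.59, 2.40 to 2.79). Ctss was at 783 and 1520 CPM (1.94, 1.82 to 2.07). Within the barcode limits of the study, which leave 49 LFD and 73 HFD macrophages, the log2 ratio of Ctsd was 0.53, and 8 of 31 lysosomal genes were higher and 4 lower, where 20.4% of all genes were higher and 13.5% lower. Proteases did not move as a block. Ctsb was at 2551 and 3727 CPM (1.46, 1.41 to 1.52) and Lgmn at 1056 and 1085 CPM (1.03, 0.966 to 1.09). Ctsc went the other way, from 1445 to 670 CPM (0.464, 0.436 to 0.493), the lowest ratio of the tested genes. Ctsh was also lower, at 815 and 604 CPM (0.741, 0.688 to 0.798).

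Of the glycosidases, Gusb, the beta-glucuronidase, was the only gene past 1.5-fold higher, at 137 and 287 CPM (2.09, 1.79 to 2.45). Gaa was past it in the other direction, at 43.1 and 27.0 CPM (0.627, 0.445 to 0.886). Glb1 encodes the lysosomal beta-galactosidase that acts in the senescence-associated staining. It was at 49.8 CPM (39.1 to 62.5) in LFD macrophages and 46.8 CPM (39.3 to 55.3) in HFD macrophages, a ratio of 0.940 (0.704 to 1.26). The interval of this ratio leaves out a 1.5-fold change in either direction, but it covers only the error of counting. With 1 library per diet it sets no limit on the effect of diet. In the remaining classes Glb1 stood at 26.9 and 32.6 CPM in fibroblasts and at 13.0 and 15.8 CPM in endothelial cells. Its levels in HFD Cd9+, Cd9+ lectin+ and resident macrophages were 48.8, 51.7 and 46.2 CPM. These values are transcript levels of dissociated cells, while the staining reads enzyme activity in tissue, so neither is a measure of the other.

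Psap, the precursor from which the saposins that activate sphingolipid hydrolases are cut, was at 1740 and 3414 CPM (1.96, 1.88 to 2.05). Its partners in lipid handling stayed near their LFD level. Ratios were 1.24 for Npc2, 1.03 for Npc1, 0.928 for Grn (progranulin), 0.873 for the thioesterase gene Ppt1 and 0.863 for the acid ceramidase gene Asah1. In the membrane group Cd63 was at 648 and 1330 CPM (2.05, 1.91 to 2.20) and Cd68 at 536 and 967 CPM (1.80, 1.67 to 1.95). Lamp1, the main structural glycoprotein, was at 1017 and 1137 CPM (1.12, 1.05 to 1.19). Scarb2 was at 113 and 86.4 CPM (0.765, 0.627 to 0.935) and the calcium channel gene Mcoln1 at 20.2 and 11.6 CPM (0.576, 0.342 to 0.974), from 30 and 34 UMIs. An annotated pseudogene, Cd63-ps, is not among the genes counted, and its effect on the counts of Cd63 was not tested.

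The proton pump was the group with the most uniform direction, as all 6 subunits tested had ratios above 1. Atp6v0d2 encodes a form of the d subunit of the membrane sector that is best known from osteoclasts and macrophages (ENSMUSG00000028238, GRCm38 chromosome 4, 19876841 to 19922605, minus strand). It had 9 UMIs in LFD macrophages, or 6.06 CPM (2.77 to 11.5), and 866 in HFD macrophages, or 296 CPM (277 to 316), a ratio of 48.9 (25.6 to 107). Its widely expressed counterpart Atp6v0d1 was at 78.7 and 138 CPM (1.75, 1.42 to 2.17). The catalytic subunit gene Atp6v1a was at 144 and 273 CPM (1.90, 1.63 to 2.22) and Atp6v1b2 at 119 and 241 CPM (2.03, 1.72 to 2.40). Atp6v1h and Atp6ap1 had ratios of 1.18 and 1.04. Atp6v0c, with 18 and 13 UMIs, fell short of 50, and its annotated pseudogenes are not among the genes counted.

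**Figure D3:**
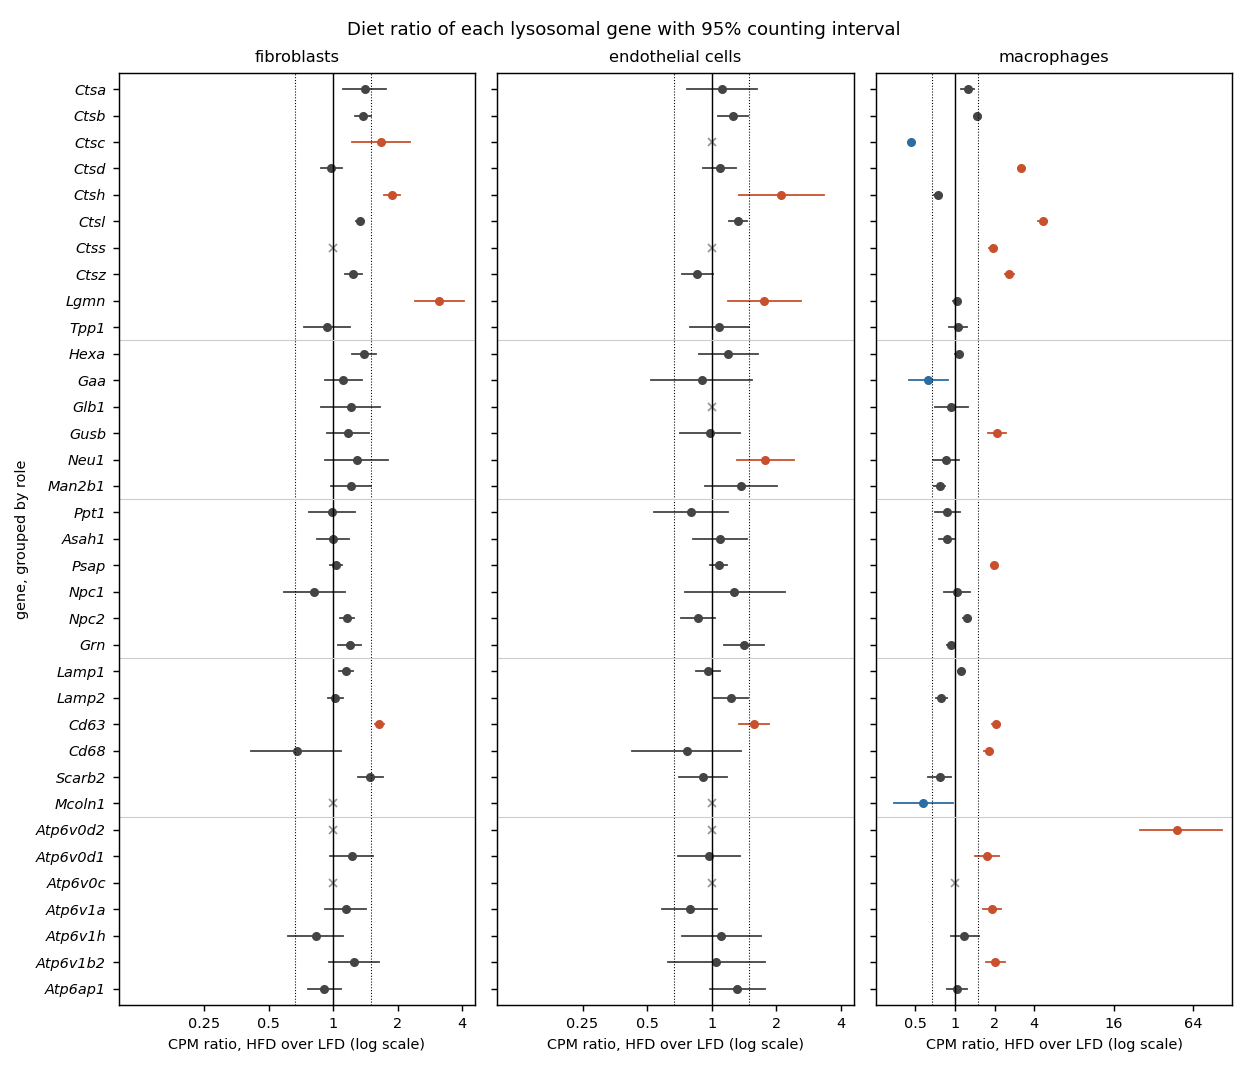
CPM ratio of HFD over LFD (horizontal log axis) for each lysosomal gene in fibroblasts, endothelial cells and macrophages, with its 95% counting interval as a line. Orange points are past 1.5-fold higher, blue past 1.5-fold lower and dark grey between, dotted lines mark 1.5-fold, and crosses mark genes with fewer than 50 UMIs. In macrophages the points spread from 0.464 for Ctsc to 48.9 for Atp6v0d2, and in fibroblasts Lgmn lies farthest out at 3.12.

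The higher level of Atp6v0d2 on HFD came from a minority of barcodes. On LFD, 9 of 230 macrophages (3.91%, 1.80 to 7.30%) had a UMI and none had more than 1. On HFD, 92 of 321 (28.7%, 23.8 to 33.9%) had a UMI, up to 83 in a barcode, and the 33 barcodes with the most held 81.5% of its UMIs. It was found in 35 of 70 Cd9+ macrophages, 35 of 47 Cd9+ lectin+ macrophages, 13 of 126 resident macrophages and 9 of 78 of those with neither marker. In fibroblasts 0 of 377 LFD and 1 of 293 HFD barcodes had a UMI, at median depths of 8500 and 7908 UMIs, against 6328 and 6915 UMIs in LFD and HFD macrophages. After thinning to 2000 UMIs per barcode, 1.85% of LFD and 17.6% of HFD macrophages still had a UMI.

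Fewer lysosomal genes passed 1.5-fold when macrophages with Cd9 were left out, and fewer of all genes did as well. Macrophages with any Cd9 UMI made up 4 of 230 on LFD (1.74%, 0.476 to 4.39%) and 117 of 321 on HFD (36.4%, 31.2 to 42.0%). Among macrophages without Cd9, 5 of 33 lysosomal genes were past 1.5-fold higher and 0 lower, where 6.93% of all genes were higher and 9.8% lower. The 5 were Atp6v0d2, Ctsd, Ctsz, Ctsl and Atp6v0d1, at ratios of 6.86, 1.61, 1.73, 1.57 and 1.501. Psap (1.08), Ctss (1.26), Gusb (1.26) and Ctsc (0.743) did not pass 1.5-fold there. Trem2, Spp1, Gpnmb and Lpl, markers of lipid-associated macrophages, moved with the macrophage result: all 4 are in the tables, Gpnmb was at 0 on LFD, and their sum was 632 CPM on LFD and 3921 CPM on HFD. It was 431 and 544 CPM in resident macrophages and 6244 CPM in HFD Cd9+ macrophages. In macrophages with neither marker it went the other way, at 2234 CPM on LFD and 1863 CPM on HFD. The part of this sum in the result was not tested.

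A list of 51 further lysosomal genes set the 35 in context. In macrophages 18 of 50 tested were past 1.5-fold higher and 6 lower, where 14.7% of all genes were higher and 16.9% lower, with a median log2 ratio of 0.08, against -0.02 for all genes. Of 10 further pump subunits, 8 were higher and 0 lower, but among macrophages without Cd9 0 of the 10 passed 1.5-fold in either direction, where 6.93% of all genes were higher and 9.8% lower. The 3 highest ratios were those of Ctsk, Igf2r and Acp5. Ctsk, the collagen-cleaving cathepsin K, had 3 UMIs on LFD and 566 on HFD, or 2.02 and 193 CPM (95.8, 32.6 to 466). Igf2r, which carries newly made enzymes to the lysosome, had 1 and 162 UMIs (82.3, 14.6 to 3269). Acp5, the tartrate-resistant acid phosphatase, was at 10.1 and 110 CPM (10.9, 6.49 to 19.6). The 3 lowest were the sialomucin gene Cd164 (0.360), the sulfamidase gene Sgsh (0.459) and the iduronate sulfatase gene Ids (0.502). Of the CLEAR-binding factors, Tfeb was at 25.6 and 26.0 CPM, Tfe3 at 104 and 80.3 CPM and Mitf at 77.4 and 63.6 CPM.

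In resident macrophages the diet difference was smaller and ran mostly one way. Of 32 lysosomal genes, 4 were past 1.5-fold higher on HFD and 0 lower, where 5.95% of all genes were higher and 8.82% lower. Their median was 0.17 on the log2 scale, against 0.00 for all genes. Ctsd was at 809 and 1455 CPM (1.80, 1.66 to 1.96), Ctsl at 477 and 837 CPM (1.75, 1.57 to 1.96), Ctsz at 524 and 881 CPM (1.68, 1.51 to 1.87) and Cd68 at 560 and 874 CPM (1.56, 1.41 to 1.73). Ctsd, Ctsl and Ctsz were also the 3 proteases with the highest ratios in all macrophages. Atp6v0d1 lay on the border, at 77.0 and 115 CPM (1.499, 1.12 to 1.999). The lowest ratios were 0.824 for Asah1, 0.825 for Ctsc, 0.831 for Neu1, 0.876 for Gaa and 0.886 for Glb1.

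Other genes of interest stayed under 1.5-fold in resident macrophages. Ctsb was at 2778 and 3730 CPM, Ctss at 757 and 849 CPM, Lgmn at 1165 and 1387 CPM, Lamp1 at 1083 and 1267 CPM and Cd63 at 708 and 1048 CPM. Psap was level at 1564 and 1515 CPM. Atp6v0d2 had 8 and 19 UMIs, or 6.23 and 21.9 CPM, too few to be compared. Stress genes were at 7607 and 5359 CPM in these barcodes, and their part in the differences was not tested.

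On HFD, some lysosomal genes were higher and some lower in Cd9+ than in resident macrophages, the latter at about the share of all genes. Of 33 tested, 10 were past 1.5-fold higher in Cd9+ macrophages and 6 lower, where 18.1% of all genes were higher and 17.7% lower. The median log2 ratio was 0.08, against 0.07 for all genes, so the group as a whole did not differ from all genes by its median. Atp6v0d2 was at 438 CPM in Cd9+ and 21.9 CPM in resident macrophages (19.97, 12.6 to 33.6). Psap was at 4758 and 1515 CPM (3.14, 2.95 to 3.35), Gusb at 393 and 143 CPM (2.75, 2.22 to 3.42), Ctss at 2244 and 849 CPM (2.64, 2.42 to 2.89) and Atp6v1b2 at 332 and 130 CPM (2.55, 2.03 to 3.21). Ctsl was at 1996 and 837 CPM (2.38, 2.18 to 2.61), but in barcodes with up to 2500 genes it was at 774 and 789 CPM, and within the barcode limits of the methods its log2 ratio was -0.14. Also higher were Ctsz at 2011 and 881 CPM (2.28), Ctsd at 3234 and 1455 CPM (2.22), Atp6v1a at 347 and 169 CPM (2.06) and Cd63 at 1613 and 1048 CPM (1.54). In barcodes with up to 2500 genes, Ctsd was at 1675 and 1331 CPM, Atp6v1a at 233 and 160 CPM and Cd63 at 1236 and 1047 CPM. These genes and Ctsl were under 1.5-fold there, while the others of the 10 higher genes were past it.

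The 6 lower genes, a count near the share of all genes, were 2 proteases, 2 glycosidases, 1 lipid handling gene and 1 membrane protein. Ctsc was at 376 CPM in Cd9+ and 1264 CPM in resident macrophages (0.297, 0.260 to 0.339). Ctsh was at 475 and 928 CPM (0.511) and Grn at 870 and 1515 CPM (0.574). Scarb2 was at 61.1 and 128.2 CPM (0.476), Gaa at 21.7 and 41.6 CPM (0.522) and Man2b1 at 345 and 531 CPM (0.649). Genes that barely differed were Ctsb (3871 and 3730 CPM), Cd68 (969 and 874 CPM), Glb1 (48.8 and 46.2 CPM) and Lamp1 (1066 and 1267 CPM). Lgmn was at 943 and 1387 CPM (0.680).

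Cd9+ lectin+ macrophages of HFD, the deepest of the HFD macrophage classes with a median of 11123 UMIs, lay on the same side of resident macrophages as Cd9+ macrophages for Ctsl, Ctsd, Psap, Atp6v0d2 and Ctsc. Ctsl reached 3941 CPM, Ctsd 4081 CPM, Ctsb 4631 CPM and Atp6v0d2 578 CPM, while Ctsc was at 263 CPM. Ctss was at 1760, Lgmn at 1072, Lamp1 at 1208, Cd63 at 1781 and Cd68 at 1278 CPM. These levels changed with barcode size. In barcodes of this class with over and up to 2500 genes, Ctsl was at 4245 and 1418 CPM and Ctsd at 4310 and 2182 CPM. Atp6v0d2 was at 608 and 327 CPM there, Ctsb at 4751 and 3644 CPM and Ctsc at 228 and 556 CPM. Over resident macrophages 10 of 33 lysosomal genes were past 1.5-fold higher and 6 lower, where 20.6% of all genes were higher and 20.1% lower. Their lectin group sum was 783 CPM, against 5805 CPM in resident macrophages, and Cd9 was at 603 CPM, against 502 CPM in Cd9+ macrophages.

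**Figure D4:**
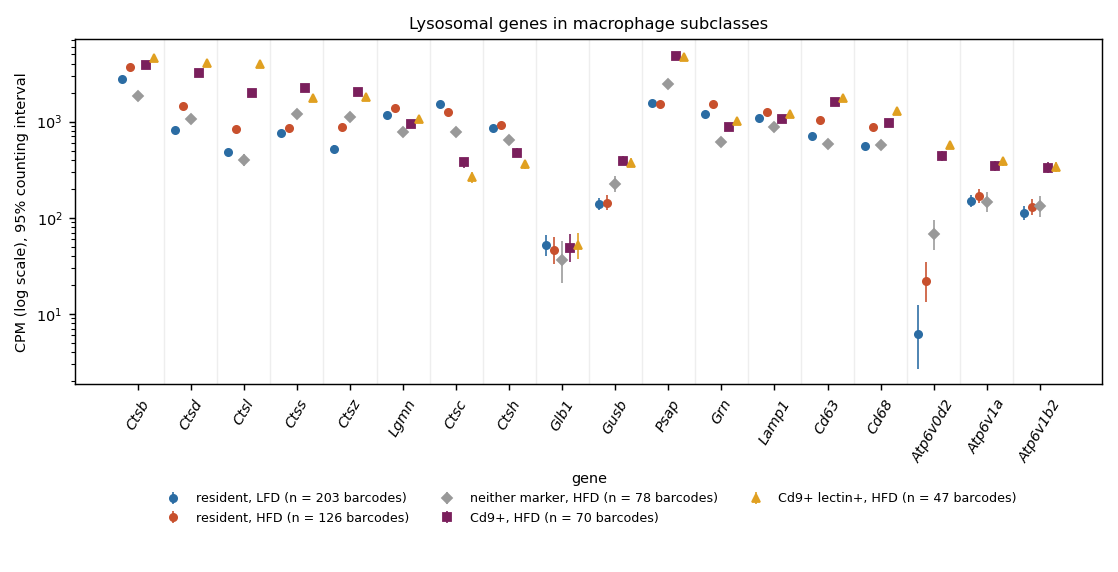
CPM (vertical log axis) of 18 lysosomal genes in macrophage subclasses, with 95% counting intervals as bars and 1 symbol per subclass and diet. Cd9+ and Cd9+ lectin+ macrophages of HFD stand above resident macrophages for Ctsd, Ctsl, Psap and Atp6v0d2 and below them for Ctsc, Ctsh and Grn, while Glb1 lies between 36.03 and 52.1 CPM in all 5. The gap in Ctsl between Cd9+ and resident macrophages is absent in barcodes with up to 2500 genes (774 and 789 CPM). In the same barcodes the gap in Ctsd is under 1.5-fold (1675 and 1331 CPM).

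Macrophages with neither marker were the HFD subclass with the lowest lysosomal share, at 1.64%. Compared with them, 15 of 32 lysosomal genes were past 1.5-fold higher in HFD Cd9+ macrophages and 1 lower, where 12.8% of all genes were higher and 9.67% lower. The 1 lower gene was Ctsc, at 376 against 771 CPM (0.487). Ctsl (5.01), Ctsd (3.03), Cd63 (2.74) and Ctsb (2.07) were among the higher ones.

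The contrast between Cd9+ and resident macrophages changed with the number of genes per barcode. Limits of 200 to 2500 genes and under 5% mitochondrial reads per barcode, which the methods describe, are ones that 294 LFD and 352 HFD barcodes met, among them 49 and 73 macrophages. Within these limits 19 HFD Cd9+ and 17 HFD resident macrophages were left, 2 of 18 lysosomal genes were past 1.5-fold higher and 4 lower, where 17.5% of all genes were higher and 16.4% lower, and the log2 ratio of Ctsl was -0.14. The HFD Cd9+ macrophages were then divided at 2500 genes, a step added after the data were seen. The 29 larger barcodes had a median of 11886 UMIs and the 41 smaller ones 6098 UMIs, and the lysosomal share was 3.34% in the larger and 2.27% in the smaller.

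Ctsl was at 2601 CPM in the larger Cd9+ barcodes and 774 CPM in the smaller ones (3.36, 2.88 to 3.94), the latter close to the 789 and 922 CPM of smaller and larger resident macrophages. Ctsd was at 4007 and 1675 CPM (2.39, 2.15 to 2.67) and Atp6v0d2 at 544 and 225 CPM (2.41, 1.80 to 3.29). Ctsc moved against them, at 252 and 626 CPM (0.402, 0.314 to 0.512). In smaller resident barcodes Ctsd was at 1331 CPM, Atp6v0d2 at 25.4 CPM and Ctsc at 1250 CPM. Psap and Ctss were already high in the smaller Cd9+ barcodes, at 3247 and 1920 CPM, against 1536 and 901 CPM in smaller resident ones. Of 30 lysosomal genes, 9 were past 1.5-fold higher in the larger Cd9+ barcodes and 2 lower, where 21.4% of all genes were higher and 9.03% lower. In resident macrophages the same division gave 1 of 30 higher and 1 lower, where 8.82% of all genes were higher and 5.29% lower. In Cd9+ lectin+ macrophages it gave 6 of 31 higher and 3 lower (22.4 and 14% of all genes), and in those with neither marker 3 of 23 higher and 0 lower (9.06 and 6.46% of all genes). Of the 4 markers of lipid-associated macrophages, Gpnmb was at 2717 CPM in the larger and 360 CPM in the smaller Cd9+ barcodes and Trem2 at 1495 and 946 CPM. Lpl (3044 and 2813 CPM) and Spp1 (26.4 and 28.7 CPM) differed little. Cd9 was at 501 and 504 CPM, but every barcode needed a UMI of it to enter the class.

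**Figure D5:**
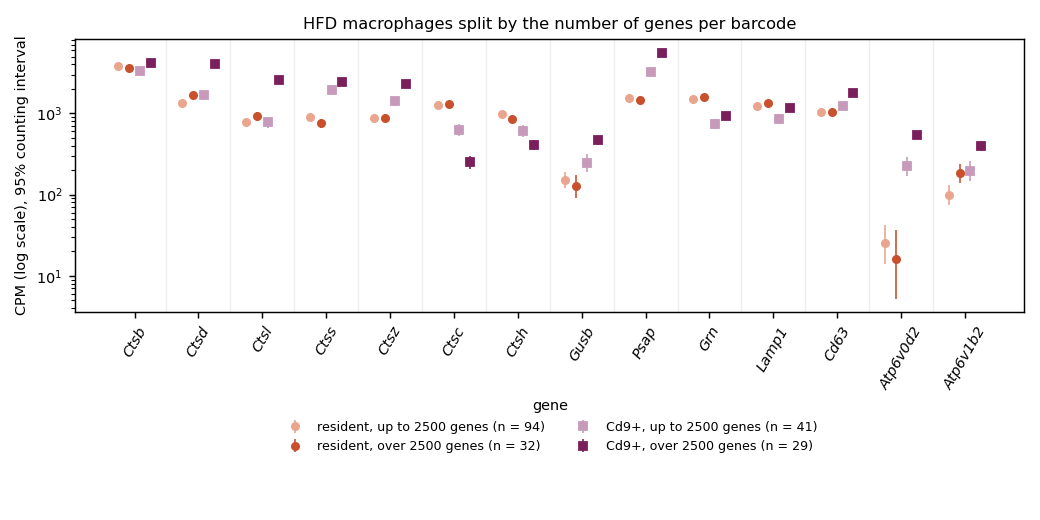
CPM (vertical log axis) of 14 lysosomal genes in HFD resident and Cd9+ macrophages, divided into barcodes with up to and over 2500 genes, with 95% counting intervals. The smaller Cd9+ barcodes lie near the smaller resident ones for Ctsl (774 against 789 CPM) but not for Psap (3247 against 1536 CPM) or Atp6v0d2 (225 against 25.4 CPM).

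The LFD library held only 2 Cd9+ macrophages, with 32121 UMIs together, so its values describe 2 barcodes, of which 1 held 26801 of these UMIs. The 2 differed widely, with Ctsb at 336 CPM in the larger and 2820 CPM in the smaller, Lgmn at 112 and 1128 CPM, and Cd63 at 0 and 2444 CPM. Pooled, Ctsb was at 747, Ctsd at 1214, Ctsl at 31.1, Ctss at 1619, Lgmn at 280, Lamp1 at 560, Cd63 at 405 and Cd68 at 280 CPM. Glb1 and Atp6v0d2 had no UMI, where 3 UMIs would read 93.4 CPM. Past 1.5-fold, 22 of 31 lysosomal genes were higher and 1 lower in HFD than in LFD Cd9+ macrophages, where 35.7% of all genes were higher and 19.4% lower. Within LFD, 6 of 32 were higher and 22 lower in Cd9+ than in resident macrophages, where 26.2% of all genes were higher and 40.4% lower. Doubled class thresholds leave 1 LFD Cd9+ barcode. Then 18 of 31 were higher on HFD, close to the 60.4% of all genes, and 14 of 32 were lower than in resident macrophages, below the 68.5% of all genes, where the reported count lay above its share.

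In fibroblasts the lysosomal genes leaned to HFD by small steps, with a few proteases farther out. Of 31 tested, 4 were past 1.5-fold higher and 0 lower, where 4.89% of all genes were higher and 8.99% lower. The median log2 ratio was 0.25, against -0.03 for all genes, and 24 of the 31 had a ratio above 1. Lgmn (GRCm38 chromosome 12, 102394084 to 102439813, minus strand) was at 27.2 CPM on LFD and 85.0 CPM on HFD (3.12, 2.42 to 4.06). A UMI of Lgmn was in 18.3% of LFD and 41.6% of HFD fibroblasts, and in 5.37 and 16.1% after thinning to 2000 UMIs per barcode. Stray macrophage RNA at the share of the macrophage markers would give 6.05 and 6.07 CPM of Lgmn. Ctsh was at 275 and 516 CPM (1.88, 1.72 to 2.05), Ctsc at 24.4 and 40.7 CPM (1.67, 1.23 to 2.28), Cd63 at 975 and 1603 CPM (1.64, 1.57 to 1.72) and Scarb2 at 126 and 188 CPM (1.49, 1.30 to 1.71).

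Ctsd and Psap, both past 1.5-fold in macrophages, were nearly level in fibroblasts, at 226 and 221 CPM and at 709 and 732 CPM. Ctsb was higher on HFD without passing 1.5-fold, at 341 and 470 CPM (1.38), as was Ctsl at 1287 and 1710 CPM (1.33). Lamp1 was at 469 and 537 CPM, and Atp6v0d2 had 0 and 1 UMIs. The lowest ratios were 0.679 for Cd68 (16.8 and 11.4 CPM), 0.818 for Npc1, 0.833 for Atp6v1h, 0.909 for Atp6ap1 and 0.937 for the peptidase gene Tpp1. Ctsc thus had a ratio above 1 in fibroblasts and below 1 in macrophages, a difference that was not tested. Among further lysosomal genes 3 of 46 were past 1.5-fold higher and 3 lower, near the 4.89 and 8.99% of all genes, and Ctsk was at 122 and 419 CPM.

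The make-up of the fibroblast class moved with diet. Fibroblasts with fewer than 2 UMIs of Pi16 and Dpp4, markers of interstitial progenitors, were 197 of 377 on LFD and 206 of 293 on HFD. Cd63 did not pass 1.5-fold in either part, with ratios of 1.48 in these fibroblasts and 1.47 in the others, while Ctsh passed in both (1.53 and 1.92). Ctsc had a ratio of 1.35 (0.944 to 1.95) in the former, and in the latter, with fewer than 50 UMIs, of 1.77 (0.932 to 3.35). Fibroblasts with fewer than 2 UMIs had Lgmn at 21.2 and 107 CPM (5.03, 3.42 to 7.64), and the others at 32.4 and 45.6 CPM (1.41). The 35 genes together made up 0.769 and 0.962% of UMIs in the former and 0.595 and 0.706% in the latter. With fewer than 2 UMIs, 3 of 30 lysosomal genes were past 1.5-fold higher and 0 lower, where 6.48% of all genes were higher and 8.46% lower. With 2 or more, 2 of 28 were higher and 1 lower, where 6.45% of all genes were higher and 7.92% lower. Mesothelial markers Upk3b and Msln were at 405 and 229 CPM in fibroblasts of LFD and HFD, and without the marked barcodes (348 LFD and 279 HFD left) 5 of 31 lysosomal genes were past 1.5-fold higher and 1 lower, where 5.77% of all genes were higher and 9.04% lower.

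Endothelial cells had the lowest summed lysosomal share of the 3 classes and a few genes higher on HFD. Of 29 tested, 4 were past 1.5-fold higher and 0 lower, where 4.76% of all genes were higher and 4.3% lower. With the mean of per-cell CPM, 2 of 29 were higher, where 10.5% of all genes were. On the log2 scale their median ratio was 0.13, against 0.02 for all genes. Ctsh was at 22.9 and 48.0 CPM (2.09, 1.35 to 3.33), from 30 and 70 UMIs. Neu1, which removes sialic acids, was at 51.2 and 91.3 CPM (1.78, 1.32 to 2.43), Lgmn at 31.4 and 54.9 CPM (1.75, 1.19 to 2.62) and Cd63 at 192 and 303 CPM (1.58, 1.35 to 1.85). The 4 fibroblast markers (Col1a1, Col3a1, Pdgfra and Lum) summed to 260 and 515 CPM in this class, and Lyve1, Timd4 and Cd163 to 12.2 and 74.8 CPM, with Timd4 at 0 on both diets and Cd163 at 0 on HFD. Their part in the endothelial differences was not tested. Grn came next, with a ratio of 1.41. Ctsh, Lgmn and Cd63 were the genes past 1.5-fold in both fibroblasts and endothelial cells, though Cd63 fell short of it in each part of the fibroblasts.

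Leaving out barcodes with mural markers kept 79 of 149 LFD and 93 of 207 HFD endothelial barcodes. In these, 2 of 16 lysosomal genes were past 1.5-fold higher and 0 lower, where 6.19% of all genes were higher and 6.35% lower. The lowest ratios were 0.769 for Cd68, 0.791 for Atp6v1a, 0.801 for Ppt1, 0.857 for Ctsz and 0.865 for Npc2. Ctsl was at 513 and 682 CPM, Ctsb at 210 and 263 CPM, Ctsd at 172 and 187 CPM and Lamp1 at 344 and 330 CPM. Ctss had 3 and 8 UMIs and Atp6v0d2 0 and 3 UMIs. Among further lysosomal genes 2 of 32 were past 1.5-fold higher and 1 lower, near the 4.76 and 4.3% of all genes.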

How the data were processed

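The authors deposited 1 matrix of unnormalized UMI counts (gene by barcode) for each library, made by Cell Ranger against mm10. The header of each count table names version 3.0.2. Each sample's own diet label set its group, as a shared protocol text names the low-fat diet for both.

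The lysosomal genes, the classes and the other gene lists were chosen with earlier results of these data known. UMIs were summed over the barcodes of a class. Barcodes that met 2 of the 3 class rules (14 LFD, 26 HFD) were left out. A gene was compared when it had at least 50 UMIs over both groups, and log2 ratios had 0.5 UMIs added. Scrublet, run through scanpy, marked 21 LFD and 26 HFD barcodes as doublets (1.99 and 2.33%), 0 of them Cd9+. Of these, 11 and 19 had met 2 class rules and were thus left out, and the others were kept. Named are Glb1, Atp6v0d2, Cd63, Cd68, Ctsb, Ctsd, Ctsl, Ctss, Lgmn and Lamp1 throughout, and the 5 highest and 5 lowest ratios of each planned comparison (not for the 2 LFD Cd9+ barcodes), with 3 and 3 for further lysosomal genes in macrophages. Some other genes were named after their values were seen. Atp6v0c and Cd63 have annotated pseudogenes that are not among the genes counted, and their effect on the counts was not tested.

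Counts were drawn from a Poisson distribution, which the intervals assume, for 7137 genes of macrophages, 8355 of fibroblasts and 6559 of endothelial cells. The intervals held the true ratio for 95.6, 95.7 and 96.0% of genes. These draws hold no spread between barcodes or libraries, so they check the computation only. Alternatives were the methods' limits on barcodes, doubled class thresholds, thinning to 2000 UMIs, the mean of per-cell CPM, no filter on low genes and other scalings. Gene positions are from GENCODE M21. Computation used scipy 1.17.1, numpy 2.4.6 and pandas 2.3.3 under Python 3.11.15, with matplotlib 3.10.9 for plots and scanpy 1.11.5 for doublets. Library depth was 7356278 and 8412325 UMIs.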

Additional observations from a re-analysis of the deposited data

Results flagged for a closer look

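Ctsc went in opposite directions between the diets in different classes. Its HFD over LFD ratio was 1.67 in fibroblasts and 0.464 in macrophages, and neither counting interval held 1. Within macrophages the ratio of Ctsc was 0.743 in those without Cd9, 0.825 in resident ones and 0.841 in those with neither marker. None of these passed 1.5-fold. In fibroblasts with fewer than 2 UMIs of Pi16 and Dpp4 its ratio was 1.35 (0.944 to 1.95), and in the other fibroblasts it had fewer than 50 UMIs. With 1 library per diet this difference was not tested.

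Atp6v0d2 was also present outside the classes compared. Barcodes of no class held 30 of its UMIs on HFD, in 10 of 251 barcodes, with up to 12 in a barcode, and 1 UMI on LFD, in 1 of 223 barcodes. Of the 10 HFD barcodes, 3 had a C1q UMI.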

How the results depend on the processing

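With 1 library per diet no library could be left out. No paired analysis was possible because each diet has 1 library, both numbered 1, and no test was made. Leaving out shared barcodes was not run, as 0 were shared. Of the counts of lysosomal genes past the fold, 167 recomputed values lay within 1.5 times the one reported and 31 did not. Of the ratios of single genes, 1142 kept their direction and side of the fold, 45 newly passed it, 38 no longer did, 3 moved and 1 changed direction. The cause was not tested. The counts that moved follow, each with the share of all genes called the same way in parentheses. With the mean of per-cell CPM, 1 of 31 genes was lower on HFD in fibroblasts (10.03%), 2 of 29 were higher (10.5%) and 2 lower (8.41%) in endothelial cells, and 2 of 31 were lower in Cd9+ macrophages (21.1%). Within the study's barcode limits, 1 of 9 was higher on HFD in endothelial cells (8.35%) and 1 of 20 lower in resident macrophages (11.3%). Under the same limits 2 of 18 were higher in HFD Cd9+ than resident macrophages (17.5%), with Ctsl at a log2 ratio of -0.14, 2 of 24 were lower in macrophages than fibroblasts (19.8%), and 16 of 21 were higher in macrophages than endothelial cells (19.7%). With barcodes of 2 classes kept, 7 of 32 were higher on HFD in fibroblasts (5.20%), 9 of 32 in endothelial cells (4.90%), 2 of 31 lower in Cd9+ macrophages (18.1%), and 2 of 32 higher in LFD Cd9+ than resident macrophages (24.2%). The log2 diet ratio was then 1.20 for Cd68 and 1.72 for Ctss in fibroblasts and 0.71 for Cd68 in endothelial cells. With doubled class thresholds, 5 of 31 were lower on HFD in Cd9+ macrophages (24.8%) and 14 of 32 lower in LFD Cd9+ than resident macrophages (68.5%). After thinning, 2 of 11 were higher on HFD in endothelial cells (7.13%) and 8 of 14 in Cd9+ macrophages (37.8%), and in Cd9+ against resident macrophages 8 of 23 were lower on LFD (64.5%) and 3 of 23 on HFD (23.0%). With no filter on low genes, 7 of 35 were higher (18.4%) and 2 lower (17.5%) in endothelial cells and 2 of 35 lower in Cd9+ macrophages (22.2%). The following were added after the data were seen. Without the deepest 5% of barcodes, 1 of 34 was lower on HFD in macrophages (15.2%) and 1 of 31 in fibroblasts (8.54%). Macrophages without Cd9 gave 5 of 33 higher (6.93%) and 0 lower (9.80%). Without mesothelial-marked barcodes 1 of 31 was lower in fibroblasts (9.04%), fibroblasts with at least 2 UMIs of Pi16 and Dpp4 gave 2 of 28 higher (6.45%) and 1 lower (7.92%), and endothelial cells without mural-marked barcodes gave 2 of 16 higher (6.19%). All Cd9+ over all other HFD macrophages gave 2 of 33 lower (14.7%).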

Other observations

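Barcodes of no class (223 LFD and 251 HFD) carried lysosomal genes at 0.632% of their UMIs on LFD and 1.09% on HFD. Cd68 was at 89.7 and 296 CPM (ratio 3.30, 2.52 to 4.36), Gusb at 64.2 and 189 CPM (2.94, 2.14 to 4.12), Ctss at 408 and 858 CPM (2.10) and Psap at 1456 and 2682 CPM (1.84). Glb1 was at 22.8 and 12.3 CPM (0.539, 0.241 to 1.18) and Lamp2 at 177 and 170 CPM. Their median depth was 1753 UMIs on LFD and 3381 UMIs on HFD.

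Macrophages with neither marker numbered 23 on LFD and 78 on HFD. Between the diets 8 of 25 lysosomal genes were past 1.5-fold higher and 0 lower, where 14.6% of all genes were higher and 12.6% lower. The monocyte markers Ly6c2, Plac8 and Ccr2 (all 3 in the tables, Ly6c2 and Plac8 at 0 on LFD) summed to 1569 and 782 CPM and the 6 stress genes to 6127 and 4137 CPM in these barcodes, and their part in the differences was not tested. Ctsl was at 71.0 and 398 CPM, Cd63 at 187 and 589 CPM, Lgmn at 336 and 776 CPM and Ctsb at 1020 and 1867 CPM, while Ctsd was at 878 and 1066 CPM and Psap at 2996 and 2467 CPM.

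Barcodes with at least 3 UMIs of the Cd3 genes and none of the class rules met (64 LFD and 19 HFD) had lysosomal shares of 0.469 and 0.202%. The median barcode was at 0.226% on LFD and 0.181% on HFD, so the pooled diet gap was not that of the typical barcode. These barcodes also held macrophage markers, at 1298 and 696 CPM, so they are not a clean reference for stray RNA.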
